A study of Homo sapiens with 11 samples.

Results

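The genes described here are 10 members of the BCL2 family and its survival partners, taken from the tables by a list of symbols that was drawn up with earlier results of these data known. There are 6 pro-survival members (BCL2, BCL2L1, BCL2L2, MCL1, XIAP and BIRC2) and 4 pro-death members (BAK1, BID, BAD and BCL2L11). All 10 were listed in the RNA-seq tables of both cell lines, out of 21316 genes in the A549 table and 20915 in the H1299 table. A549 and H1299 are established human lung cancer cell lines. In each line, 2 libraries, numbered 1 and 2, came from cells given a short hairpin RNA to METTL3 (shMETTL3), and 1 from cells given one to GFP (shGFP), so that every library carries a hairpin. What the numbers stand for, hairpins or replicate cultures, and whether knockdown was in a clone or a pool, is not in the labels. The m6A immunoprecipitation and input samples of the series were not used here.

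The BCL2 family decides whether the outer mitochondrial membrane stays intact. Its pro-survival proteins hold the effectors BAX and BAK in check, and the BH3-only proteins relieve that block. Once the membrane opens, cytochrome c activates caspases, which XIAP and its relatives, the inhibitors of apoptosis, restrain. Lung cancer cells commonly depend on BCL-xL (BCL2L1) and MCL1 for survival. METTL3 is the catalytic subunit of the methyltransferase that places m6A on mRNA, and m6A can alter how long an mRNA lasts.

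METTL3 itself stood at 231 and 232 in A549 shMETTL3 libraries 1 and 2, against 557 in shGFP. In H1299 it stood at 123 and 100.2 in the shMETTL3 libraries, against 271 in shGFP. The unit is a level in scaled reads: reads per gene divided by 1 factor per library. It is not corrected for gene length, so levels are compared between libraries and not between genes. Reads summed to 14447379, 16504759 and 19966206 in A549 shMETTL3 1, 2 and shGFP, and to 23099169, 25443078 and 26351309 in H1299. A549 expressed all 5 epithelial markers, and its shMETTL3 library 1 stood apart with a summed level of 26155, against 18102 in library 2 and 18701 in shGFP. H1299 expressed KRT8 and KRT18, while EPCAM, KRT19 and CDH1 were at 0 to 1.1 in its libraries. Of the leukocyte markers reported here, PTPRC stayed at or below 0.7 in every library and CD3E was not listed, while CD68 was at 158 to 250.7 and LYZ at 26.4 to 45.7. These are bulk samples, in which fewer cells carrying a transcript and less of it per cell cannot be told apart.

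With METTL3 knocked down, no member passed the test in either line. Of the members with both knockdown libraries on 1 side of the control, the widest mean displacements were a higher BIRC2 in H1299, a higher BCL2L11 in A549 and a lower BCL2L2 in both lines. Differences were tested as log2(level + 1) with limma across all genes, at a Benjamini-Hochberg adjusted p under 0.05. In A549, 0 of 10 members and 0 of 17454 genes (0%) passed, with 115 genes at an unadjusted p under 0.05. edgeR on the recovered A549 reads also passed 0 genes (0%), with 138 at an unadjusted p under 0.05. In H1299, 0 of 10 members and 0 of 16470 genes (0%) passed by limma, with 99 at an unadjusted p under 0.05. A fit of both lines passed 0 of 10 members and 0 of 15546 genes (0%), with 374 at an unadjusted p under 0.05. The smallest unadjusted limma p of any member was 0.192 in A549 and 0.0873 in the fit of both lines, both for BCL2L2, and 0.111 in H1299, for BIRC2. Each limma adjusted p of a member rounded to 1. METTL3 itself did not pass either, with a log2 change of -1.26 in A549 and -1.28 in H1299. Over both lines its log2 change was -1.27, with a limma adjusted p of 0.139. The test thus missed a change of that size, and a member that did not pass is not shown to be unchanged. Each line had 1 residual degree of freedom, from the spread between its 2 knockdown libraries, which limma moderated with the spread of all genes. The lone shGFP library added no spread to the fits within a line. The p-values thus rest on differences between such libraries, which may be technical. In each of these fits, the genes at an unadjusted p under 0.05 were fewer than a share of 0.05, so the p-values ran conservative.

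**Figure D1:**
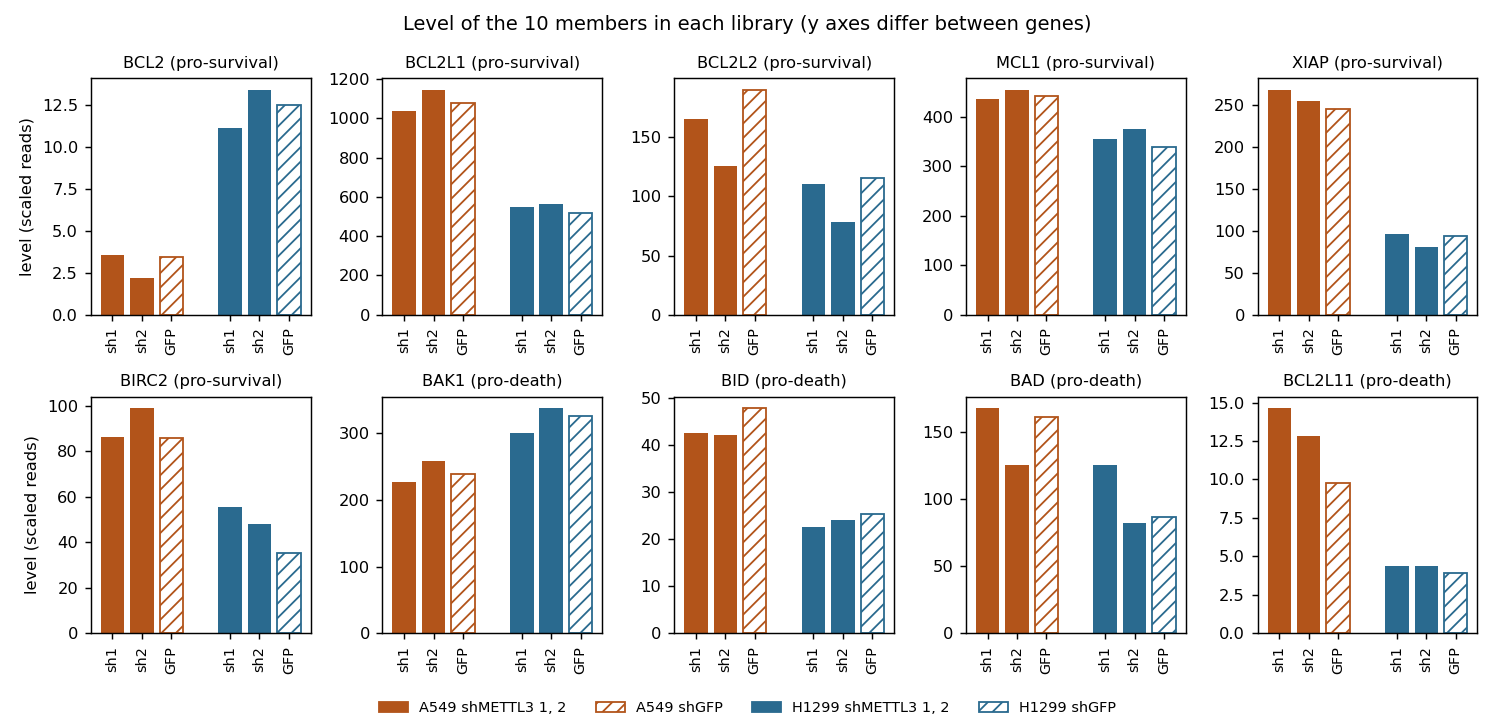
Level in scaled reads (y axes from 0, different for each gene) of the 10 members in the 6 libraries (x axes: sh1 and sh2, shMETTL3 libraries 1 and 2; GFP, shGFP), with 1 bar per library. BCL2L2 has its lowest bar of each line in shMETTL3 library 2, at 126 in A549 and 78.2 in H1299, and BIRC2 in H1299 stands at 55.6 and 48.2 in shMETTL3 against 35.5 in shGFP.

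Among the pro-survival members, BCL2L1 encodes BCL-xL, which binds BAK and BH3-only proteins. Its level was 1039 and 1146 in A549 shMETTL3 libraries 1 and 2, against 1078 in shGFP. The control lay between the knockdown libraries. In H1299 the level was 548 and 562 in the shMETTL3 libraries, against 516 in shGFP. Both knockdown libraries lay above the control there, at 106 and 109% of it, a log2 change of 0.10 (SE 0.20). MCL1 is a short-lived protein that holds BAK and BIM. It had a level of 436 and 455 in A549 shMETTL3 cells, against 442 in shGFP cells, again with the control in between. In H1299 shMETTL3 cells MCL1 had a level of 355 and 377, against 339 in shGFP cells. Those libraries stood at 105 and 111% of the control, a log2 change of 0.11 (SE 0.21). The all-gene median of H1299 shMETTL3 library 1 was itself 0.09 above shGFP on the log2 scale. Once each library was centred on its median, BCL2L1 and MCL1 no longer lay above the control in both H1299 knockdown libraries.

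BCL2L2 encodes BCL-w, a pro-survival relative of BCL-xL. Its level was 166 and 126 in A549 shMETTL3 libraries 1 and 2, against 190.3 in shGFP. In H1299 it was 110.2 and 78.2 in the shMETTL3 libraries, against 116 in shGFP. All 4 knockdown libraries lay below their control, with library 2 the lower of the pair in each line. Library 1 of A549 stood at 87.1% of shGFP and library 2 at 66.2%, with 95% counting intervals of 0.773 to 0.980 and 0.585 to 0.749 for the ratio. For H1299 the shares were 95.2 and 67.6%, with intervals of 0.844 to 1.08 and 0.593 to 0.769. Such intervals come from the recovered reads and cover counting error only. H1299 values carry 1 decimal, so its read numbers are less sure: library 1 is whole reads with a factor of 5.5 as well as the 4.5 used here. With 5.5, the same 4 members of that library had intervals that excluded 1. By limma, the log2 change was -0.39 in A549 (SE 0.26), -0.31 in H1299 (SE 0.30) and -0.35 over both lines (SE 0.18), and each adjusted p was 1. Library 2 decides the size: library 1 alone gave -0.20 in A549 and -0.07 in H1299, against -0.59 and -0.56 for library 2 alone.

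BCL2L2 shares its exons with the readthrough transcript BCL2L2-PABPN1, which has a row of its own, and the sources used here do not give how reads common to both were counted. The readthrough row stood at 539 and 504 in A549 shMETTL3 cells, against 537 in shGFP cells, and at 511 and 536 in H1299 shMETTL3 cells, against 573 in shGFP cells. Its level in library 2 was 93.7% of the control in A549 and 93.6% in H1299. The ratio of BCL2L2 to the readthrough row was 0.307 and 0.25 in A549 shMETTL3 libraries, against 0.354 in shGFP. In H1299 that ratio was 0.216 and 0.146 in the shMETTL3 libraries, against 0.202 in shGFP. Within each line the ratio was lowest in shMETTL3 library 2, as was BCL2L2 itself. The part that a split of shared reads plays in the BCL2L2 values was not tested.

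BCL2, the founding member of the family, was barely measured in A549. It had a level of 3.57 and 2.19 in the shMETTL3 libraries, from 10 and 7 reads, against 3.42 in shGFP, from 13 reads. A difference between these libraries was not detectable at this depth. H1299 had more, at 11.1 and 13.4 in the shMETTL3 libraries against 12.5 in shGFP. The control lay between the knockdown libraries in both lines.

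XIAP and BIRC2 act downstream of mitochondria and at death receptors: XIAP binds and blocks caspases, and BIRC2 encodes cIAP1, a ubiquitin ligase of the TNF receptor complex. XIAP had a level of 269 and 255 in A549 shMETTL3 libraries, against 246 in shGFP. Both knockdown libraries lay above the control, at 109 and 104% of it, a log2 change of 0.09 (SE 0.19). In H1299 the XIAP level was 96.2 and 80.6 in the shMETTL3 libraries, against 93.7 in shGFP, and the control lay in between. BIRC2 stood at 55.6 and 48.2 in H1299 shMETTL3 libraries, against 35.5 in shGFP. That put them at 157 and 136% of the control, with counting intervals of 1.29 to 1.91 and 1.12 to 1.66 for the ratio. In A549 the BIRC2 level was 86.4 and 99.1 in the shMETTL3 libraries, against 85.8 in shGFP, or 101 and 115% of it. All 4 knockdown libraries thus lay above their control, by under 1% in A549 library 1. For BIRC2 limma gave a log2 change of 0.11 in A549 (SE 0.24), 0.53 in H1299 (SE 0.28) and 0.32 over both lines (SE 0.17), and each adjusted p was 1. The change in A549 minus that in H1299 was -0.42 (SE 0.36), with a limma p of 0.276 before and 1 after adjustment.

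Of the pro-death members, BAK1 encodes the effector BAK, which opens the outer membrane. It had a level of 228 and 258 in A549 shMETTL3 libraries, against 239 in shGFP. In H1299 the level was 300.4 and 338 in the shMETTL3 libraries, against 326 in shGFP. In each line the control lay between the knockdown libraries. BID links death receptors to mitochondria after caspase-8 cuts it. Its level was 42.5 and 42.2 in A549 shMETTL3 libraries, against 47.9 in shGFP. In H1299 BID was at 22.7 and 24.0 in the shMETTL3 libraries, against 25.3 in shGFP. All 4 knockdown libraries lay below their control, at 88.7 and 88.1% of it in A549 and 89.7 and 94.9% in H1299, and each counting interval of these ratios included 1. The log2 change over both lines was -0.14 (SE 0.16).

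BAD, a BH3-only protein controlled by phosphorylation downstream of growth factors, differed between the knockdown libraries of each line. It had a level of 168 and 125 in A549 shMETTL3 libraries 1 and 2, against 161 in shGFP. In H1299 the level was 126 and 82.0 in the shMETTL3 libraries, against 86.5 in shGFP. Library 1 lay above the control and library 2 below it in both lines, at 104 and 77.8% in A549 and 145 and 94.8% in H1299. BAD overlaps GPR137 in the RefSeq annotation, and the strand setting of the counting is not given in the sources used here, so its values are uncertain.

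BCL2L11 encodes BIM, a BH3-only protein that binds every pro-survival relative. Its level was 14.6 and 12.8 in A549 shMETTL3 libraries, against 9.74 in shGFP, from 41, 41 and 37 reads. Both knockdown libraries lay above the control, at 150 and 132% of it, but counting intervals of 0.941 to 2.41 and 0.823 to 2.11 for the ratio included 1. H1299 had 4.4 in each shMETTL3 library, against 3.9 in shGFP, from 20, 22 and 20 reads. By limma, A549 had a log2 change of 0.45 (SE 0.36) and H1299 one of 0.14 (SE 0.36), and both adjusted p-values were 1. These few reads limit what BCL2L11 can show in either line.

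**Figure D2:**
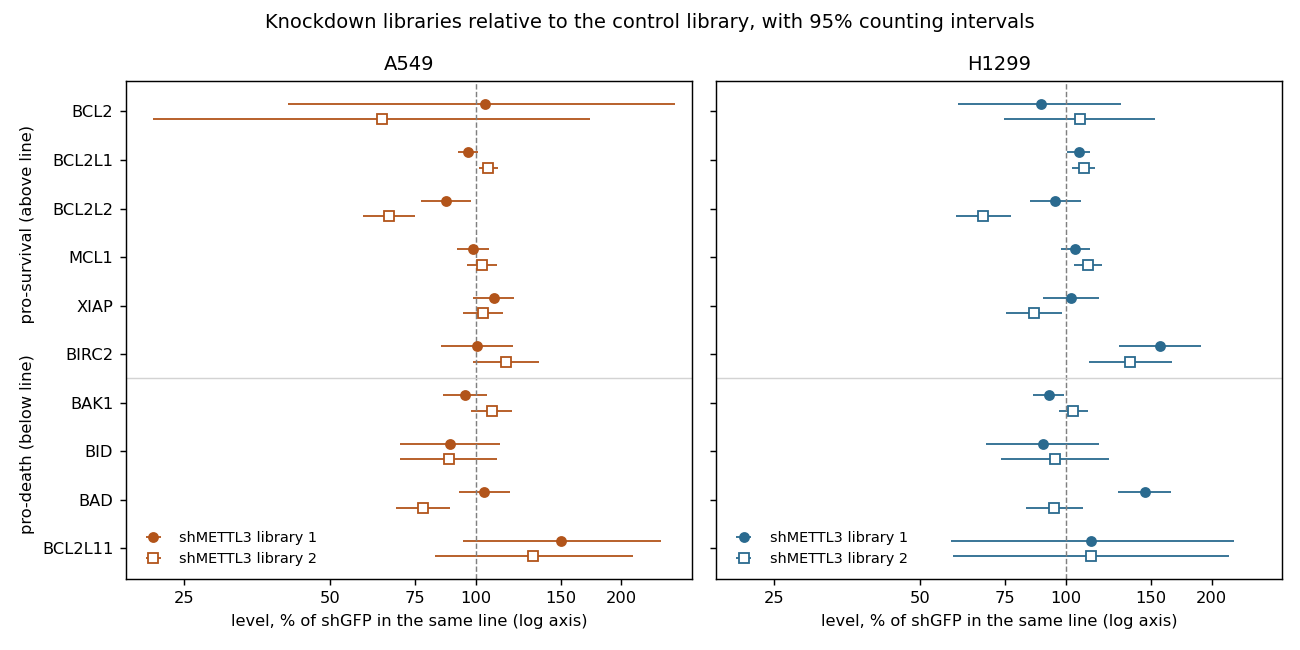
Level in each shMETTL3 library as a percent of shGFP in the same line (x axis, log scale) for the 10 members (y axis), with filled circles for library 1, open squares for library 2 and bars for 95% counting intervals. In H1299, BIRC2, at 157 and 136%, and BCL2L1, at 106 and 109%, have both bars above 100%. BCL2L2 in A549, at 87.1 and 66.2%, has both below 100%.

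Counting error alone was exceeded often in the whole tables, which sets the scale for these ratios. In A549 library 1, the interval of 1 member (BCL2L2) excluded 100% of the control, as did those of 37.6% of all genes. Library 2 of A549 had 3 such members (BCL2L1 higher, BCL2L2 and BAD lower), beside 31.1% of all genes. In H1299 library 1 there were 4 (BCL2L1, BIRC2 and BAD higher, BAK1 lower), beside 39.7%, and in library 2 there were 5 (BCL2L1, MCL1 and BIRC2 higher, BCL2L2 and XIAP lower), beside 35.9%. The members were thus outside their counting intervals in shares that lay below those of all genes in A549 library 1 and near or above them elsewhere. The median absolute log2 difference of the members from shGFP was 0.07 and 0.19 in A549 libraries 1 and 2, against 0.21 and 0.18 for all genes. In H1299 it was 0.13 and 0.13 for the members, against 0.21 and 0.18 for all genes. The values for all genes include many at low levels, and the members were not matched to other genes by level.

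Both knockdown libraries lay on the same side of shGFP for 5 of 10 members in A549, beside 54.4% of all genes. The higher ones were XIAP, BIRC2 and BCL2L11, and the lower ones BCL2L2 and BID. H1299 had 6 of 10 such members, beside 55.1% of all genes, with BCL2L1, MCL1, BIRC2 and BCL2L11 higher and BCL2L2 and BID lower. Pro-survival and pro-death members stood on both sides in each line. A level + 1 at least 25% higher, or at least 20% lower, in both libraries was reached by 1 member in each line. These were BCL2L11 in A549 (higher, beside 8.42% of all genes) and BIRC2 in H1299 (higher, beside 7.67%). The added 1 shrinks changes at low levels, here and at the next limit. At 1.5-fold, 0 members of either line were left, beside 2.44% of all genes in A549 and 1.68% in H1299. Across all 4 knockdown libraries, BIRC2 and BCL2L11 were above their control, beside 10.5% of all genes, and BCL2L2 and BID were below it, beside 9.05%. These 4 are 1 pro-survival and 1 pro-death member in each direction. With each library centred on its median, 6 members of A549 lay on 1 side, beside 54.2% of all genes, and 5 of H1299, beside 58.4%. BIRC2 then no longer lay above the control in A549 library 1, while BCL2L2, BID and BCL2L11 kept their sides in both lines. The median log2 change of the 10 members was 0.015 in A549, against -0.0014 for all genes, and 0.036 in H1299, against 0.019 for all genes.

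The balance of the members was taken as the mean log2(level + 1) of the 6 pro-survival members minus that of the 4 pro-death members. Its absolute value depends on transcript lengths, so only differences between libraries are read. In A549 the balance was 0.987 and 0.996 in the shMETTL3 libraries, against 1.09 in shGFP. Both knockdown libraries were lower, and the mean difference was -0.10. In H1299 it was 1.18 and 1.17 in the shMETTL3 libraries, against 1.18 in shGFP, a mean difference of -0.0046. Both differences rest on the choice of summary. The median over members in place of the mean gave 0.0088 in A549, with the opposite sign, and -0.26 in H1299. Leaving out XIAP and BIRC2 gave -0.18 in A549 and -0.089 in H1299. BCL2L11, with few reads and a log2 change of 0.45 in A549, enters the pro-death mean, and a balance without it was not computed.

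The numbered libraries also differed from each other in the same way in both lines for BCL2L2 and BAD. Library 2 had 0.760 of the library 1 level of BCL2L2 in A549 and 0.710 in H1299. For BAD these ratios were 0.747 and 0.652. A library 2 level lower by at least 20% in both lines was thus seen for 2 of 10 members, beside 9.34% of all genes. No member was at least 25% higher in library 2 of both lines, beside 3.74% of all genes. BCL2, with few reads, was lower in library 2 of A549 and higher in library 2 of H1299.

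**Figure D3:**
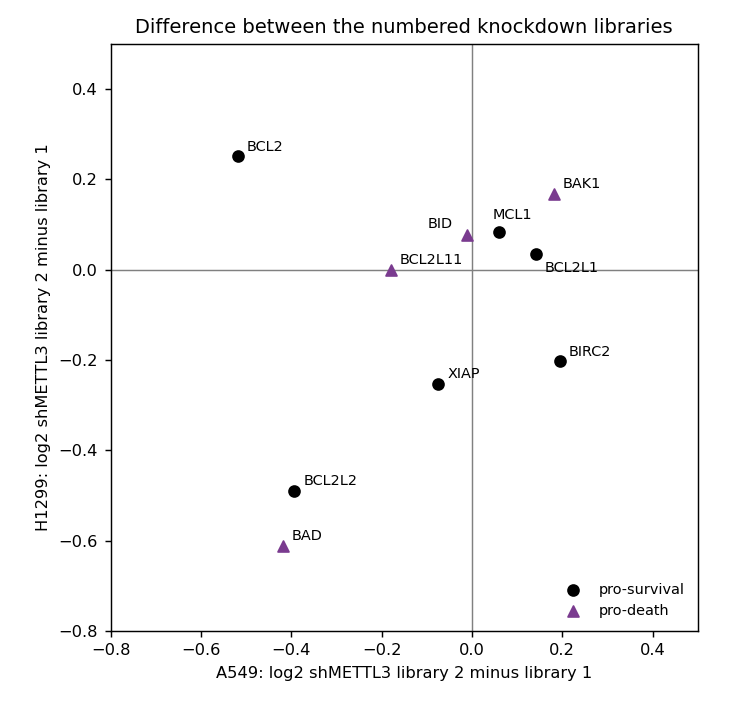
Difference of log2(level + 1) between shMETTL3 library 2 and library 1 in A549 (x axis) and H1299 (y axis), with 1 point per member, circles for pro-survival and triangles for pro-death genes. BCL2L2, at -0.39 and -0.49, and BAD, at -0.42 and -0.61, lie apart at the lower left.

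Among the 10097 other genes with a mean level of at least 20 in both lines, those whose 4 log2 ratios to shGFP lay closest to BCL2L2 were NEK7, PDSS1 and HYPK, at Euclidean distances of 0.137, 0.152 and 0.174. NEK7, a mitotic kinase, had a level of 250.4 and 195 in A549 shMETTL3 libraries, against 274 in shGFP, and 94.9 and 63.8 in H1299 shMETTL3 libraries, against 94.9 in shGFP. PDSS1, an enzyme of coenzyme Q synthesis, had 118 and 85.6 in A549 shMETTL3 libraries, against 139 in shGFP, and 63.8 and 40.4 in H1299 shMETTL3 libraries, against 63.7 in shGFP. For HYPK, a chaperone that binds huntingtin, the levels were 123 and 104 in A549 shMETTL3 libraries, against 145 in shGFP, and 249 and 198 in H1299 shMETTL3 libraries, against 284 in shGFP. In all 3 genes, library 2 was the lowest library of each line, as it was for BCL2L2. The search used these same ratios, so this likeness follows from how the genes were picked. BCL2L2 was used for this search because its ratios had the largest root mean square, 0.42, of the members at that level.

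The sources used here do not give whether the tables of A549 and H1299 were scaled together, so their levels are set side by side with no test. Scaled values summed to 5.16e+06 to 5.25e+06 per library in A549 and to 5.09e+06 to 5.17e+06 in H1299. As scaled, the mean log2 difference between the lines was larger than the mean knockdown change of either line for each of the 10 members. The precursor ribosomal RNA gene RNA45S5 took 20.5 to 25.4% of the H1299 total and 0.208 to 0.284% of the A549 total. The median gene was 0.43 higher in A549 on the log2 scale as scaled, and 0.059 higher when RNA45S5 was left out of the totals. Each member is also given relative to the shift of 0.43. Relative to it, the difference between lines was no longer the larger for BCL2L2, at 0.23, and for BAD, at 0.21 against a knockdown change of 0.23 in H1299. The same held for MCL1 when RNA45S5 was left out of the totals. All 3 A549 libraries lay above all 3 H1299 libraries for 7 members, beside 51.9% of all genes, and below them for BCL2 and BAK1, beside 23% of all genes. BAD overlapped. Relative to the median gene, 5 members lay above, beside 36.4% of all genes, and 3 below, beside 36.3%, with MCL1 now among the lower ones. As scaled, a difference of at least 2-fold in level + 1 held for 3 members above, beside 29.5% of all genes, and for 1 below, beside 10.6%.

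BCL2 had the widest gap of the members in favour of H1299. Its level was 2.19 to 3.57 in A549 and 11.1 to 13.4 in H1299, whose mean was 4.03-fold higher. The log2 difference, A549 minus H1299, was -1.73, or -2.16 relative to the median gene. XIAP and BCL2L11 had the widest gaps in the other direction. XIAP was at 246 to 269 in A549 and 80.6 to 96.2 in H1299, a 2.85-fold higher mean in A549 and a log2 difference of 1.5, or 1.07 relative to the median gene. BCL2L11 was at 9.74 to 14.6 in A549 and 3.9 to 4.4 in H1299, a 2.93-fold higher mean in A549. Its log2 difference, which the added 1 shrinks at such low levels, was 1.34, or 0.91 relative to the median gene. BCL2L1 was at 1039 to 1146 in A549 and at 516 to 562 in H1299, a log2 difference of 1.0, or 0.58 relative to the median gene. BIRC2 (0.97) and BID (0.85) were also higher in A549 on the log2 scale, and stayed above after the shift was taken off, at 0.54 and 0.43. BAK1 ran the other way, with 228 to 258 in A549 and 300.4 to 338 in H1299, a log2 difference of -0.41, or -0.84 relative to the median gene. For MCL1 the direction turned: A549 stood at 436 to 455 and H1299 at 339 to 377, a log2 difference of 0.32, which became -0.11 relative to the median gene and -0.073 when RNA45S5 was left out of the totals. BCL2L2 was higher in A549 by 0.66, with overlapping libraries in both of those scalings, and BAD overlapped in all of them.

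**Figure D4:**
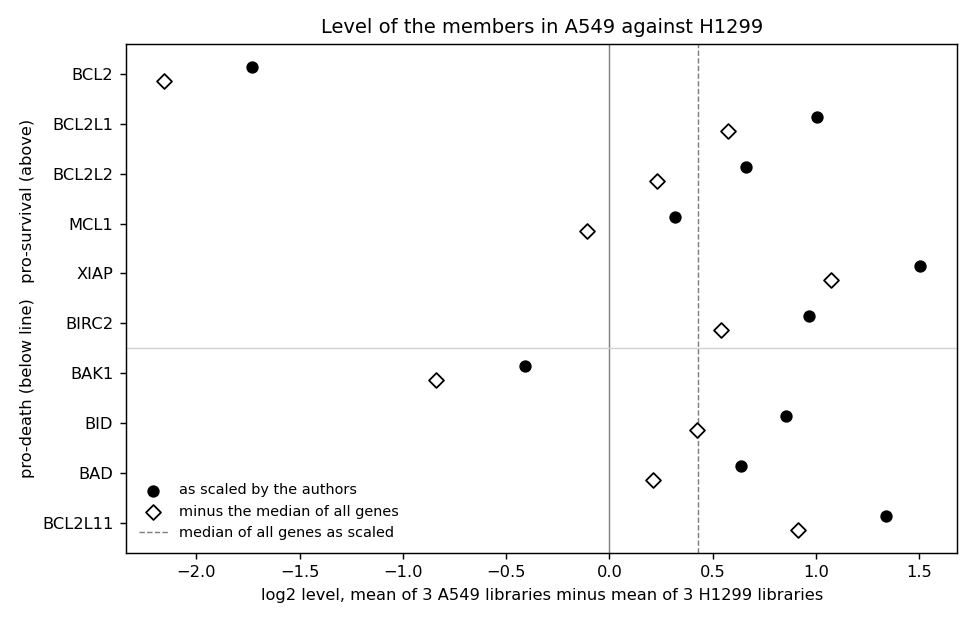
Mean log2(level + 1) of the 3 A549 libraries minus that of the 3 H1299 libraries (x axis) for each member (y axis), as scaled by the authors (filled circles) and after the median of all genes, 0.43, was taken off (open diamonds). BCL2 and BAK1 lie left of 0 on both scales, MCL1 crosses it, and XIAP and BCL2L11 lie farthest right.

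Ratios of members within a library do not depend on how that library was scaled. The ratio of BCL2L1 to BAK1 was 4.57 and 4.44 in A549 shMETTL3 libraries, against 4.51 in shGFP. In H1299 it was 1.83 and 1.66 in shMETTL3 libraries, against 1.58 in shGFP. The ratio of MCL1 to BAK1 was 1.92 and 1.76 in A549 shMETTL3 libraries, against 1.85 in shGFP, and 1.18 and 1.11 in H1299 shMETTL3 libraries, against 1.04 in shGFP. For both pairs, every A549 library was above every H1299 library. BCL2 to BCL2L11 ran the other way, with 0.244 and 0.171 in A549 shMETTL3 libraries, against 0.351 in shGFP, and 2.52 and 3.05 in H1299 shMETTL3 libraries, against 3.21 in shGFP. The ratio of MCL1 to BCL2L11 was also lower in A549, with 29.8 and 35.5 in shMETTL3 libraries, against 45.4 in shGFP, and 80.7 and 85.6 in H1299 shMETTL3 libraries, against 86.9 in shGFP. BCL2L1 to BAD overlapped between the lines, with 6.19 and 9.15 in A549 shMETTL3 libraries, against 6.70 in shGFP, and 4.36 and 6.85 in H1299 shMETTL3 libraries, against 5.96 in shGFP. These 5 pairs were picked with results of these data known. Those with BCL2L11 rest on few reads of it: 41, 41 and 37 in A549 shMETTL3 1, 2 and shGFP. In H1299 it had 20, 22 and 20 reads, and BCL2 in A549 had 10, 7 and 13. Differences between libraries of a line in these ratios are thus uncertain.

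The members sit in a pathway of which 39 other genes were followed, and of these 37 in A549 and 35 in H1299 reached a mean level of 1. By limma, 0 of them passed in either line. Both knockdown libraries lay above shGFP for 9 of the 37 in A549, beside 27.2% of all genes, and below it for 9, beside 27.2%. In H1299 they lay above for 12 of the 35, beside 30.6% of all genes, and below for 3, beside 24.5%. With each library centred on its median, the counts were 8 above and 9 below in A549, beside 23.7 and 30.5% of all genes, and 12 above and 7 below in H1299, beside 27.3 and 31.1%. The median log2 change of the list was -6.2e-05 in A549 and 0.06 in H1299. Of the effectors, BAX had a log2 change of -0.05 in A549 and -0.18 in H1299, with shGFP between the knockdown libraries in both lines.

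Genes of this list with a mean level of at least 20 and both knockdown libraries on 1 side of shGFP were ranked by their mean log2 change. APAF1, the scaffold of the apoptosome, was among the 3 highest of these in both lines. Its level was 99.6 and 80.6 in A549 shMETTL3 libraries, against 64.5 in shGFP, and 39.8 in each H1299 shMETTL3 library, against 32.0 in shGFP. All 4 knockdown libraries lay above their control, with a log2 change of 0.39 (SE 0.16) over both lines and a limma adjusted p of 1. The next in A549 were DIABLO, an antagonist of inhibitors of apoptosis, at a log2 change of 0.20, and BNIP3, a mitochondrial mitophagy receptor, at 0.19. In H1299, the executioner caspase CASP6 had a log2 change of 0.51 and PMAIP1, the BH3-only gene of NOXA, one of 0.49. The 3 lowest of these in A549 were BIRC5 (survivin, an inhibitor of apoptosis needed in mitosis) at -0.24, the TNF receptor TNFRSF1A at -0.19 and cytochrome c, CYCS, at -0.18. In H1299 they were the inhibitors of apoptosis NAIP at -0.22 and BIRC3 at -0.18, and the TNF receptor adaptor TRAF2 at -0.08. None of these 11 genes passed the limma test. At lower levels, some genes had larger log2 changes, and 2 BH3-only genes are named after their values were seen. BIK was at 5.6 and 3.8 in H1299 shMETTL3 libraries, from 25 and 19 reads, against 1.6 in shGFP, from 8 reads. Those libraries stood at 350.0 and 238% of the control, with both counting intervals above 1, a log2 change of 1.11 (SE 0.40) and a limma adjusted p of 1. In A549, where BIK was at 8.57 and 7.5 in shMETTL3 libraries, against 7.89 in shGFP, the control lay in between. BMF was at 2.14 and 2.81 in A549 shMETTL3 libraries, from 6 and 9 reads, against 4.21 in shGFP, from 16 reads. Its log2 change there was -0.59 (SE 0.49), with a limma adjusted p of 1. In H1299 BMF was at 5.8 and 0.6 in shMETTL3 libraries, from 26 and 3 reads, against 1.6 in shGFP, from 8 reads. The control lay in between there, and the log2 change was 0.34 (SE 0.86).

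**Figure D5:**
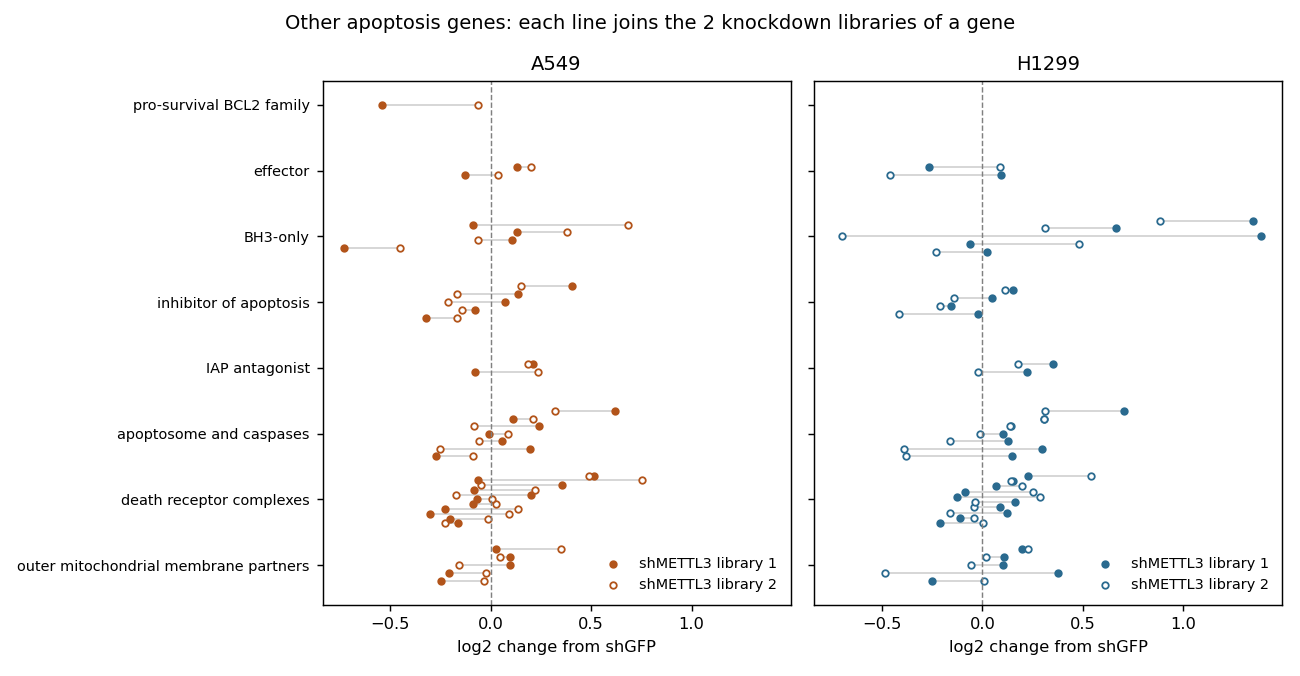
Difference of log2(level + 1) from shGFP (x axis) of the other apoptosis genes with a mean level of at least 1, by role (y axis), in A549 and H1299. Each grey line joins shMETTL3 library 1 (filled) and library 2 (open) of 1 gene, and many lines cross 0.

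Between the lines, 29 of the 34 other apoptosis genes measured in both lay higher in all A549 libraries, beside 51.9% of all genes, and 4 lay lower, beside 23%. Relative to the median gene these counts were 21, beside 36.4% of all genes, and 4, beside 36.3%. The effectors split, a choice made after their values were seen: BAX was at 84.3 to 94.4 in A549 and 17.4 to 26.0 in H1299, a 4.0-fold higher mean in A549. BOK, a relative of BAX and BAK, was at 209.7 to 241 in A549 and 401 to 513 in H1299, a 2.05-fold higher mean in H1299. Relative to the median gene, the log2 difference was 1.54 for BAX and -1.46 for BOK. BAK1, at -0.84 on that scale, stood on the side of BOK.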

How the data were processed

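RNA-seq tables of 6 libraries were used, 3 per line. The deposited values are a signal per gene, in which, tested on the values, the authors divided whole read numbers by 1 factor per library: 2.8, 3.2 and 3.8 for A549 shMETTL3 1, 2 and shGFP, and 4.5, 5 and 5.1 for H1299. All values (100%) were whole reads within their rounding under the smallest such factor, though the 1 decimal of H1299 lets 5.5 fit its shMETTL3 library 1 as well, and the basis of the factors is not given in the sources used here. Libraries were made from poly(A) RNA with a stranded TruSeq kit, per the labels' protocols. Bowtie, TopHat and the hg19 build are named in the submitters' processing notes, with no versions.

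limma 3.58.1 in R 4.3.3 (eBayes with an intensity trend) was run on log2(value + 1) for genes with a mean of at least 1, within each line, over both lines with line as a term, and with an interaction. The lone shGFP library was assumed to vary like the knockdown libraries. edgeR 4.0.16 was run on recovered A549 reads. Counting intervals are exact binomial at 95%. Code was tested on simulated data with planted changes far larger than those of the members. That run does not show whether changes of the members' size can be detected. The wider list and the rule naming its 3 highest and 3 lowest genes per line (mean of at least 20, both libraries on 1 side) and the likeness search were, like the members, chosen with earlier results of these data known. Alternatives were a pseudocount of 0.1, other filters and scalings, no trend, a replicate block and leaving out each shMETTL3 library in turn. The lone shGFP library of a line could not be left out. Spreadsheet dates replace 27 names in the A549 table and 25 in the H1299 table, none of them named here. Gene neighbours came from RefSeq annotation, without coordinates, since the build of the files differs. Of the leukocyte markers, 1 is not reported here.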

Additional observations from a re-analysis of the deposited data

Results flagged for a closer look

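BIRC5, which encodes survivin, lay below shGFP in both A549 knockdown libraries and above it in both H1299 knockdown libraries. Its level was 439 and 487 in A549 shMETTL3 libraries, against 548 in shGFP, and 300.2 and 292 in H1299 shMETTL3 libraries, against 270.0 in shGFP. The log2 change in A549 minus that in H1299 was -0.38 (SE 0.27), with a limma interaction p of 0.201 before and 1 after adjustment over all genes, so the difference did not pass the test.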

How the results depend on the processing

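No member passed the limma test under any alternative run, where the smallest adjusted p of any member was 0.797 and the smallest unadjusted p 0.0115, and none of the members' log2 changes that lay on 1 side of shGFP changed direction. The number of genes passing over both lines was 0, but 1 with median centring and 1 with the replicate block, METTL3 in each (adjusted p 0.0448 and 0.0173). The numbers 1 and 2 pair the lines only by number: differences between them correlated between A549 and H1299 across 10099 genes (r = 0.372), with only 2 pairs. Members on 1 side of shGFP numbered 5 in A549 and 6 in H1299, and 6 and 5 with median centring. In level + 1, a limit of 25% up or 20% down left 1 and 1, and a limit of 1.5-fold left 0 and 0. The change in balance in A549, -0.10, was -0.12 with a pseudocount of 0.1, 0.0088 with medians and -0.18 without XIAP and BIRC2, and -0.10 with either knockdown library left out. In H1299, -0.005 became -0.011, -0.26 and -0.089, and ranged from -0.007 to -0.002 with a library left out. The MCL1 level difference between lines, 0.32, was -0.11 relative to the median gene and -0.073 without RNA45S5, scalings chosen after seeing the data. Planned results on m6A peaks were not run, for want of annotation on the build of the peaks, nor was edgeR for H1299, whose values are rounded to 1 decimal. The read numbers of BCL2 in A549 and of BCL2L11 limit what can be seen.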
